A study of Mus musculus with 6 samples.

Results

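The tetraspanins described here are 10 genes measured in macrophages of regenerating mouse muscle: Tspan13, Tspan3, Tspan4, Tspan14, Tspan33, Cd9, Cd81, Cd82, Cd37 and Cd53. They were taken by gene symbol from a table of 54966 features, and all 10 were found there, once each. They are 10 of 31 tetraspanin genes in that table. The set was built around Tspan13, which was chosen by its old-against-young FPKM difference in an earlier pass over the same values. The old-against-young values below are therefore a description of these libraries and lend no separate support to that difference.

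The cells were wild-type macrophages with CD11b and F4/80 and little Ly6C on their surface, sorted 3 days after muscle injury with barium chloride, a salt that destroys fibres and starts regeneration. There were 3 libraries from old and 3 from young mice. The labels give neither ages, sex nor strain, and they do not say whether each library came from its own animal, so the spread between libraries may be partly technical. Values are FPKM as deposited by the authors, that is, fragments divided by the length of the gene and by the size of the library, with 16543924 to 19400922 fragments per library recoverable from them.

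Tetraspanins are small proteins with several membrane-spanning segments that gather integrins, proteases and immune receptors into patches of the cell membrane. In leukocytes they are known for tuning adhesion, receptor signalling and cell fusion, and several of them mark extracellular vesicles. CD37 and CD53 are largely restricted to leukocytes, whereas CD9, CD81 and CD82 occur on many cell types.

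The gate was checked first. Itgam, which encodes CD11b, lay between 41.9 and 50.9 FPKM in old and between 34.3 and 36.9 FPKM in young libraries, and Adgre1, which encodes F4/80, between 430.2 and 476.3 FPKM in old and between 347.4 and 381.7 FPKM in young libraries. Ly6c2 ranged from 2.46 to 7.68 FPKM in old and from 1.31 to 3.20 FPKM in young libraries, and Ly6c1 stayed under 1 FPKM in every library. Transcripts of both positive markers of the gate were abundant, and those of Ly6C were low. Correlations across the 11108 genes that averaged 1 FPKM or more did not part the groups fully (genes are not independent replicates). Young replicate 1 correlated at r = 0.9859 with old replicate 2, against 0.9846 and 0.9813 with young replicates 2 and 3. Its r with old replicates 1 and 3 was 0.9818 and 0.9821. Old replicate 2 in turn correlated at 0.9849 with young replicate 2, above its 0.9833 with old replicate 1. Values without young replicate 1 are given for Tspan13, Tspan3 and Cd9.

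The upstream sequences of 4 members are shown. They were chosen because each has a single start in RefSeq and its old and young FPKM as deposited did not overlap. Tspan13 and Tspan33 had lower and Cd37 and Cd53 had higher values in old. Each run is the 250 bases before the RefSeq start on GRCm38.p6, read 5′ to 3′ on the strand of the gene. Capitals mark the motifs GAGGAA (the core bound by PU.1 and related ETS factors), GGGCGG (the GC box) and CCAAT, searched on both strands.
Tspan13, chr12:36042479-36042728, minus strand: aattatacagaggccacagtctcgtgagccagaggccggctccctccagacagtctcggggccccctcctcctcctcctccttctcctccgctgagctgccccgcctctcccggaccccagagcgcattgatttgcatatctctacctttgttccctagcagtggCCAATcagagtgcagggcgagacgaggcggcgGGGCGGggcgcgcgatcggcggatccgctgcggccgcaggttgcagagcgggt
Tspan33, chr6:29693964-29694213, plus strand: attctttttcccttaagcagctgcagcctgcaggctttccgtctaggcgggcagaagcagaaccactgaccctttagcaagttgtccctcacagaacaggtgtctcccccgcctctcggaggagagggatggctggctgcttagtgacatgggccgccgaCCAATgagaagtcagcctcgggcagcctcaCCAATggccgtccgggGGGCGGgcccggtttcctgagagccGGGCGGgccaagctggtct
Cd37, chr7:45238840-45239089, minus strand: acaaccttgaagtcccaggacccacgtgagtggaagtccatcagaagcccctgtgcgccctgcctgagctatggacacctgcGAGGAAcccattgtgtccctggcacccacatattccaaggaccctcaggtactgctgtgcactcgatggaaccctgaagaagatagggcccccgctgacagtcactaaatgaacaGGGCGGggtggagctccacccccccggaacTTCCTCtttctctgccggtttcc
Cd53, chr3:106790150-106790399, minus strand: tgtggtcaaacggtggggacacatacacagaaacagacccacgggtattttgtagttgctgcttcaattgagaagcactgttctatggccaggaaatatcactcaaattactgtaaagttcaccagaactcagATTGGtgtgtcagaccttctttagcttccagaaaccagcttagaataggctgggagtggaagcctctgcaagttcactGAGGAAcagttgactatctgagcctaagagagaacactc

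The windows of Tspan13 and Tspan33 hold GC boxes and CCAAT and no GAGGAA, and those of Cd37 and Cd53 hold GAGGAA, 23 and 168 bases before the start of Cd37 and 39 bases before that of Cd53. By the GENCODE M21 gene models, the Cd37 gene reaches to 45239115, so its whole window lies inside the gene. The window of Tspan13 lies partly inside its gene, which reaches to 36042500. In all, 4 of the 10 members have GAGGAA in a window. The other two are Cd82, which had lower values in old and has it 225 and 23 bases before 1 of its starts, and Tspan14, whose groups overlapped and which has it in both of its windows. Of 32851 RefSeq windows of this length, 23.3% hold GAGGAA, 32.7% GGGCGG and 33.8% CCAAT on either strand. These shares are per window and the count of 4 is per gene. Genes with several starts have more windows, so the count and the shares are not alike. Tspan13 has its CCAAT 85 and its GC box 53 bases before the start, Tspan33 has CCAAT at 90 and 60 and GC boxes at 44 and 19 bases, Cd37 has a GC box at 53 bases, and Cd53 has CCAAT at 117 bases. TATAAA (the TATA box), held by 12.4% of windows, was in none of the 15 windows of the 10 members. A match describes letters and is not a measured binding event. The G+C content of the windows was 66% for Tspan13, 62.4% for Tspan33, 58.8% for Cd37 and 45.2% for Cd53.

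The levels of the members spanned a wide range, with the leukocyte tetraspanin gene Cd53 at the top and Tspan33 near the floor. Averaged over the 6 libraries, Cd53 had 295.5 FPKM, Cd9 101.3, Tspan14 69.5, Cd37 49.1, Tspan13 40.6, Tspan4 34.8, Tspan3 24.3, Cd82 22.6, Cd81 9.67 and Tspan33 1.04 FPKM. In this order the ranges of neighbours overlapped for Cd37 and Tspan13, for Tspan13 and Tspan4, and for Tspan3 and Cd82, so those neighbours did not differ beyond their spread over the 6 libraries. Within groups, Tspan13 was above Tspan4 in 3 of 3 young libraries without overlap and in 1 of 3 old ones, and Tspan3 was above Cd82 in 3 of 3 old libraries without overlap and in 1 of 3 young ones. The other 6 pairs of neighbours were apart in every library. The place of Cd37 beside Tspan13 also differed: in the old libraries Cd37 was above it in 3 of 3, while in the young libraries Cd37 was above it in 0 of 3. The ratio of Tspan13 to Cd37 within a library was 0.564 to 0.592 in old and 1.04 to 1.19 in young libraries.

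**Figure D1:**
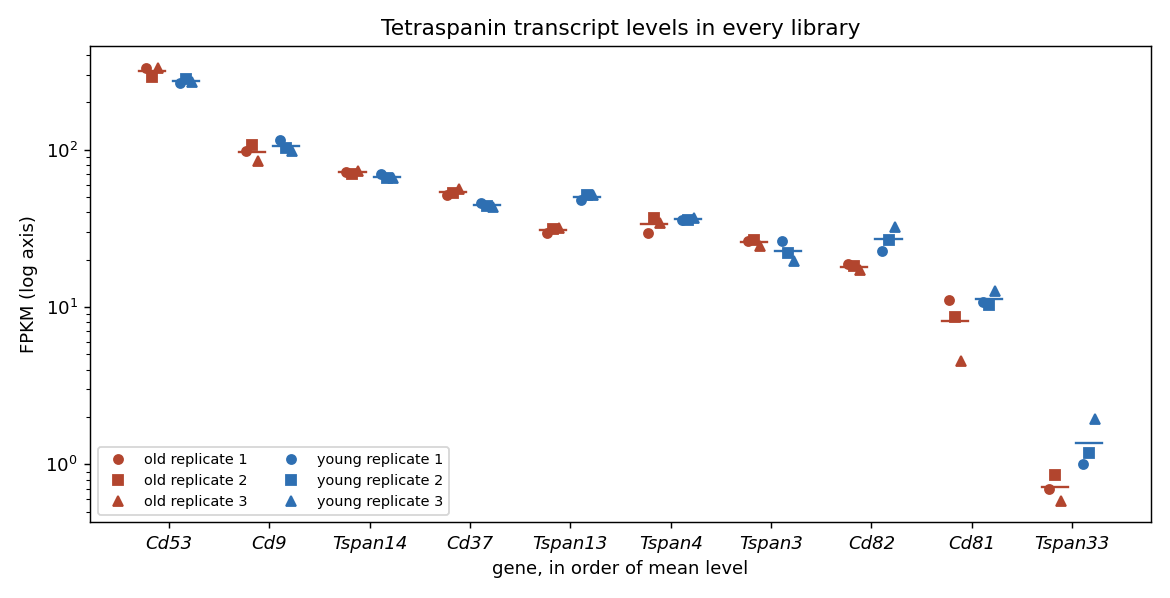
FPKM on a log axis (vertical) of the 10 members (horizontal, in order of mean level), with old libraries in red on the left and young libraries in blue on the right of each gene. Each marker is 1 library and each bar is the mean of 3. Tspan13 lies between 29.8 and 31.8 FPKM in old and between 47.7 and 51.7 FPKM in young libraries.

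Tspan13, also known as NET-6, is a tetraspanin whose product has been tied to a neuronal calcium channel and whose role in macrophages is not well defined. It lies on chromosome 12, from 36014557 to 36042500 on the minus strand (GRCm38). It had 29.8, 31.4 and 31.8 FPKM in old replicates 1 to 3, against 47.7, 51.6 and 51.7 FPKM in young replicates 1 to 3. All old libraries were below all young ones, and the lowest young library was above the highest old one by more than the range within either group. These values rest on 1316 to 2181 fragments per library. Old libraries averaged 61.6% of the young level, which is -0.68 as a difference of mean log2(FPKM + 1), with an SE of 0.065. The adjusted p from limma, 0.0444, is the value that brought the gene into the set. In a bulk sample, fewer cells that carry a transcript and less of it per cell cannot be told apart.

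The Tspan13 call was lost without any 1 of 5 libraries. Its log2 change stayed between -0.75 and -0.65 under all 15 alternative settings, and its adjusted p ranged from 0.0169 to 0.21. Without old replicate 1, 2 or 3 the limma adjusted p was 0.147, 0.108 or 0.21, and without young replicate 2 or 3 it was 0.132 or 0.168, all above the threshold of 0.05. Without young replicate 1 it was 0.0469, at a log2 change of -0.72. The call was also lost with a pseudocount of 0.1, without the filter on low values and with a minimum of 5 FPKM (limma adjusted p = 0.0789, 0.0572 and 0.0544). Of all 11108 genes tested, 0.036% passed in either direction and 0.018% passed with lower values in old, and of the members 1 of 10 passed, the gene that the set was built on. limma voom on the recovered fragments passed 41 of 10965 genes, and of the members 1 of 10, again Tspan13. The remaining 9 had limma adjusted p from 0.167 to 0.623.

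In FPKM as deposited, old and young libraries were separated for 5 of the 10 members, 3 with lower and 2 with higher values in old. Over all tested genes, the libraries were separated in 20.7%, with lower values in old in 8.45% and with higher values in 12.2%. The same 5 members had an unadjusted limma p under 0.05, as had 15% of all tested genes, 6.18% with lower and 8.84% with higher values in old. Since the members were gathered with these values known, nothing is read from the counts. The median log2 change of the members was -0.12, with 6 negative and 4 positive, beside 0.01 over all tested genes, of which 53.1% were positive. No member changed sign under any of the 15 settings, which include 3 other scalings, although Tspan33 has no value under the minimum of 5 FPKM.

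Cd82 and Tspan33 were the other members with lower values in every old library. Cd82, which encodes the metastasis suppressor KAI1 (chromosome 2, 93419111 to 93463140), had 18.7, 18.2 and 17.2 FPKM in old and 22.8, 26.7 and 32.3 FPKM in young libraries. The old libraries lay close together and the young ones were spread, with a coefficient of variation of 4.19% in old and 17.5% in young. Its log2 change was -0.56 (SE 0.122, limma adjusted p = 0.167), and -0.43 without young replicate 3, the highest library. Tspan33, a partner of the protease ADAM10 known from B cells and red cell precursors (chromosome 6, 29694222 to 29718559), had 0.70, 0.85 and 0.59 FPKM in old and 0.999, 1.18 and 1.93 FPKM in young libraries. It rested on 56 to 171 fragments per library and passed the filter of a mean of 1 FPKM only through the young libraries, where it is higher. Its log2 change of -0.45 (SE 0.169, adjusted p = 0.288) understates the ratio at such low values, since the old mean was 52% of the young one, and it was -0.29 without young replicate 3.

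Cd81 had a wide spread in old. Its product restrains macrophage fusion together with CD9 in mice. It lies on chromosome 7, from 143052739 to 143067934, and had 11.1, 8.65 and 4.53 FPKM in old and 10.8, 10.3 and 12.6 FPKM in young libraries. Old replicate 3 was the lowest library and old replicate 1 lay inside the young range, so the groups overlapped. The log2 change was -0.50 (SE 0.268, limma adjusted p = 0.44), and -0.17 without old replicate 3. Cd9 (chromosome 6, 125460266 to 125494791) had 98.1, 107.5 and 85.2 FPKM in old and 115.3, 102.8 and 98.8 FPKM in young libraries, with a log2 change of -0.13 and an SE of 0.105 (limma adjusted p = 0.623). The change of Cd9 was -0.038 without old replicate 3, -0.062 without young replicate 1 and -0.20 without old replicate 2. Old replicate 3 was the lowest library for both genes of this pair. On the opposite strand, Gm26728 shares 218 exon bases with Cd9 and R74862 shares 104 with Cd81. They reached at most 0.27 and 0.21 FPKM. Gm28809, also opposite to Cd9, reached 2.65 FPKM and shares 0 exon bases with it.

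Cd37 and Cd53, the leukocyte tetraspanins, had higher FPKM as deposited in every old library. The product of Cd37 is known to bind the fungal receptor Dectin-1 and to limit lymphocyte signalling. Cd37 (chromosome 7, 45233632 to 45239115) had 51.9, 53.1 and 56.3 FPKM in old and 45.9, 43.9 and 43.3 FPKM in young libraries, with a log2 change of 0.27 and an SE of 0.063 (limma adjusted p = 0.172). Cd53, a marker of nearly all leukocytes (chromosome 3, 106759921 to 106790149), had 329, 291.2 and 333.1 FPKM in old and 266.2, 281.7 and 271.7 FPKM in young libraries. Its groups were separated by the gap between old replicate 2 and young replicate 2. The log2 change was 0.22 (SE 0.081, limma adjusted p = 0.288). It was 0.15 after rescaling to TPM and 0.19 after quantile normalization (limma adjusted p = 0.436 and 0.37). The change of Cd37 was 0.21 under both. Total FPKM was higher in every old library, at 331408 to 344850, against 322183 to 330527 in young ones. The separation of Cd53 is thus of FPKM as deposited. It does not hold after division by total FPKM, where old replicate 2 falls below young replicate 2.

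Tspan14, Tspan4 and Tspan3 overlapped between the groups. Tspan14, which escorts ADAM10 to the cell surface, was the steadiest member, with 72.4, 69.9 and 72.8 FPKM in old and 70.1, 65.9 and 66.0 FPKM in young libraries (log2 change 0.09, SE 0.061). Tspan4, known for the migrasomes that moving cells leave behind, had 29.5, 36.8 and 34.4 FPKM in old and 35.9, 35.5 and 36.8 FPKM in young libraries (-0.11, SE 0.089), with old replicate 1 apart below the other 5. Its change was -0.019 without old replicate 1 and -0.17 without old replicate 2. Chid1, on the opposite strand, shares 292 exon bases with Tspan4 and reached at most 3.6 FPKM. Tspan3, a widely expressed tetraspanin that binds claudin-11 in myelin-forming cells, had 26.3, 26.8 and 24.4 FPKM in old and 26.3, 22.1 and 19.7 FPKM in young libraries (0.19, SE 0.108), with young replicate 1 level with the old libraries. Its change was 0.30 without young replicate 1 and 0.094 without young replicate 3. These genes lie on chromosome 14 (40906445 to 40966807), chromosome 7 (141475240 to 141493427) and chromosome 9 (56131725 to 56165477). Their limma adjusted p were 0.549 for Tspan14, 0.623 for Tspan4 and 0.467 for Tspan3.

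**Figure D2:**
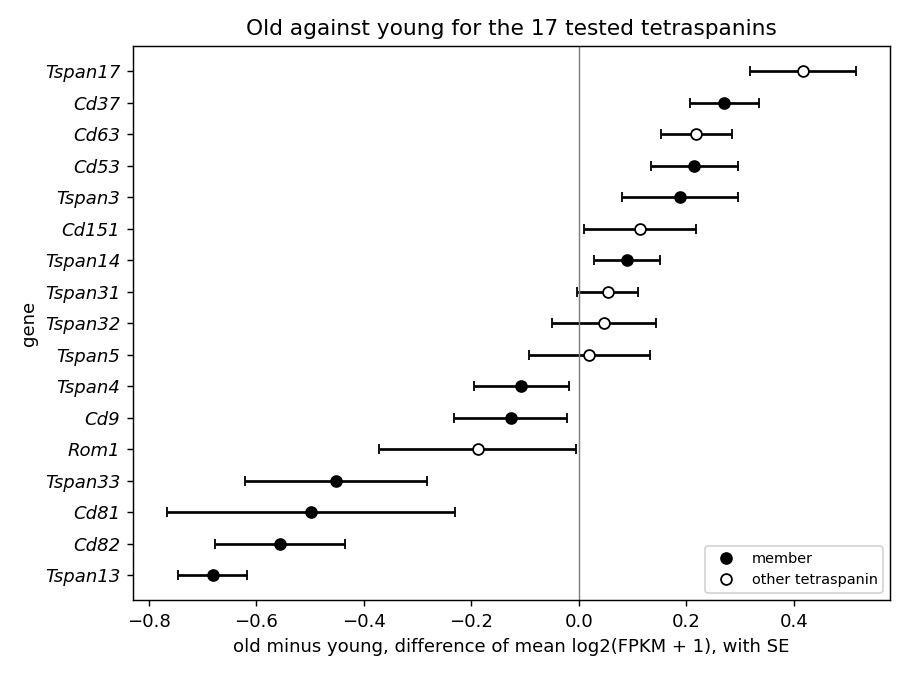
Difference of mean log2(FPKM + 1), old minus young (horizontal), with its standard error, for the 17 tetraspanins that averaged 1 FPKM or more (vertical). Filled points are members and open points other tetraspanins. Tspan13 at -0.68 and Tspan17 at 0.42 are the ends of the range.

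Set against the rest of the family, the members held most of the tetraspanin transcripts. Summed over the 31 genes, tetraspanins came to 887.5 to 908.1 FPKM in old and 842.3 to 855.1 FPKM in young libraries. Total FPKM over all features was also higher in every old library, at 331408 to 344850, against 322183 to 330527 in young ones. The tetraspanin sum and the sums given below are not corrected for that. The members made up 72.6% to 74.3% of the tetraspanin sum in old and 75.1% to 75.6% in young libraries. Tspan13 alone held 3.31% to 3.54% in old and 5.57% to 6.13% in young libraries, Cd82 1.90% to 2.09% in old and 2.66% to 3.83% in young, and Cd53 32.8% to 36.7% in old and 31.1% to 33.2% in young. For Tspan13 and Cd82 the shares of the groups did not overlap, and for Cd53 they did. Among tested tetraspanins the shares were also apart for Tspan4 and Tspan33, lower in old, and for Cd37, Cd63 and Tspan17, higher in old.

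**Figure D3:**
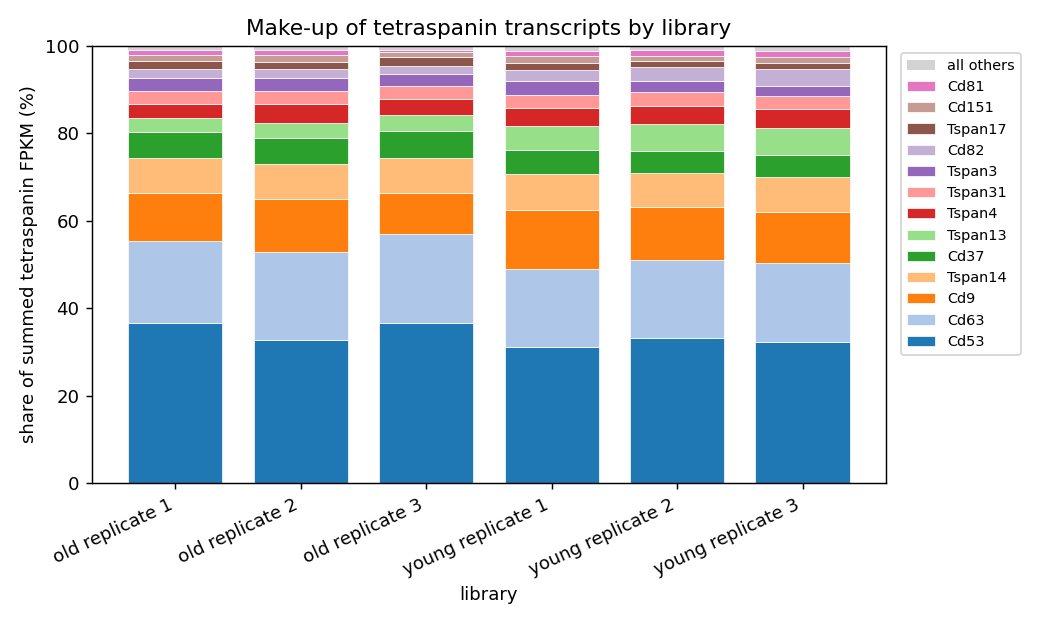
Share of the summed FPKM of 31 tetraspanin genes (vertical, percent) in each library (horizontal, old on the left). Colours are the 13 genes with the highest mean, and grey is the sum of the rest. The Tspan13 band is 3.31% to 3.54% in old and 5.57% to 6.13% in young libraries.

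Of the 21 tetraspanin genes outside the set, 7 averaged 1 FPKM or more. None passed with limma in either direction, and none passed with limma voom. Of them, 2 had an unadjusted limma p under 0.05 with higher values in old, beside 8.84% of all tested genes. Their median log2 change was 0.05. Cd63, a tetraspanin of lysosomes and vesicles, was second in the family after Cd53, with 168.9, 178.8 and 184.9 FPKM in old and 153.6, 150.9 and 152.6 FPKM in young libraries (0.22, SE 0.066, limma adjusted p = 0.221). Tspan17, like Tspan14 and Tspan33 an ADAM10 partner of the TspanC8 group, had 15.1, 15.7 and 18.1 FPKM in old and 13.4, 11.2 and 11.2 FPKM in young libraries (0.42, SE 0.098, adjusted p = 0.172). These were the pair with separated groups and an unadjusted p under 0.05. Over all tested genes, 12.2% were separated with higher values in old. Cd151, a partner of laminin-binding integrins, averaged 12.6 ± 1.67 FPKM in old and 11.5 ± 0.847 FPKM in young libraries (SD, n = 3 each).

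Tspan31, which is placed near Tspan13 in trees of the family, gave a comparison within the library. It had 26.9, 26.4 and 26.9 FPKM in old and 25.2, 26.6 and 25.3 FPKM in young libraries, with a log2 change of 0.05 and an SE of 0.057 (limma adjusted p = 0.704). The ratio of Tspan13 to Tspan31 was 1.11 to 1.19 in old and 1.89 to 2.04 in young libraries, without overlap. As Tspan31 was nearly level, the ratio restates the Tspan13 values and lends them no separate support. Tspan31 shares 641 exon bases with Cdk4 on the opposite strand, so its level is uncertain where strand was not used in counting.

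ADAM10 is a membrane protease that cuts Notch receptors and other surface proteins, and the TspanC8 tetraspanins carry it to the surface and steer which proteins it cuts. Summed over Tspan5, Tspan10, Tspan14, Tspan15, Tspan17 and Tspan33, this group came to 88.7 to 93.3 FPKM in old and 80.4 to 87.0 FPKM in young libraries. Tspan14 made up 78.1% to 80.2% of it in old and 80.6% to 82.0% in young libraries, and Tspan17 16.8% to 19.4% in old and 13.9% to 15.4% in young libraries. Tspan33 is thus a minor part of the TspanC8 transcripts here. Adam10 itself had 53.6, 56.0 and 54.3 FPKM in old and 45.8, 44.5 and 47.1 FPKM in young libraries (0.25, SE 0.059, limma adjusted p = 0.172), with separated groups. Of the 10 genes of the ADAM10 list, which holds this protease, its relative Adam17 and several of their substrates, 8 were tested and 0 passed with limma or limma voom. The unadjusted p was under 0.05 for Adam10 and, in the other direction, Notch4 (-0.43). Over all tested genes this held for 8.84% with higher and 6.18% with lower values in old. The median log2 change of the list was 0.06. Adam17 averaged 45.1 ± 1.61 FPKM in old and 43.9 ± 2.59 FPKM in young libraries, Cd44 90.5 ± 19.3 FPKM in old and 77.3 ± 10.5 FPKM in young, and Il6ra 27.9 ± 1.36 FPKM in old and 29.2 ± 4.58 FPKM in young (SD, n = 3 each).

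Proteins that tetraspanins hold beside them in the membrane had mixed values. Of 22 genes in this list, 19 were tested, 9 were higher and 10 lower in sign in old, and the median log2 change was -0.03. None passed with limma or limma voom. The unadjusted p was under 0.05 for 6 with higher values in old, and for Itgal and Itgax with lower values, beside 8.84% of all tested genes with higher and 6.18% with lower values. Cd74, the invariant chain of MHC class II, ranged from 751.2 to 1781 FPKM in old and from 1034 to 1988 FPKM in young libraries, H2-Ab1 from 223.1 to 601.4 FPKM in old and from 313.7 to 621.3 FPKM in young, and H2-Aa from 188.1 to 491.7 FPKM in old and from 243.5 to 509.5 FPKM in young, all with overlapping groups. Ifitm3, an interferon-induced membrane protein gene, averaged 694.6 ± 38.4 FPKM in old and 478.6 ± 75.6 FPKM in young libraries (SD, n = 3 each; log2 change 0.55, limma adjusted p = 0.172). The groups of Ptgfrn, Itgb2, Itgam, Ifitm3 and Cd36 were separated with higher values in old, and those of Itgal with lower values. Over all tested genes, 12.2% were separated with higher and 8.45% with lower values in old. Ptgfrn and Igsf8 encode the immunoglobulin-type partners of CD9 and CD81. Ptgfrn averaged 2.13 ± 0.556 FPKM in old and 1.02 ± 0.0599 FPKM in young libraries, while Igsf8 averaged 32.8 ± 2.23 FPKM in old and 33.5 ± 1.94 FPKM in young libraries (SD, n = 3 each).

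Genes of macrophage fusion, a process that CD9 and CD81 restrain in mice, were tested for 12 of 14 list members. None passed with limma, and the median log2 change was -0.05. The unadjusted p was under 0.05 for Cd200r1, Adam9 and Trem2 with higher values in old, and for Ocstamp, Mmp9, Ctsk and Acp5 with lower values, beside 8.84% of all tested genes with higher and 6.18% with lower values. limma voom passed 41 of 10965 genes, 14 of them with lower values in old. Of this list it passed Ocstamp and Acp5, both lower in old. Ocstamp, a fusion receptor gene, averaged 2.10 ± 0.337 FPKM in old and 3.97 ± 0.265 FPKM in young libraries. Acp5, an osteoclast phosphatase gene, averaged 60.6 ± 1.41 FPKM in old and 118.7 ± 23.8 FPKM in young libraries (SD, n = 3 each). The 4 most abundant genes of the list were Tyrobp, Sirpa, Trem2 and Acp5. Tyrobp, a signalling adaptor, averaged 1191 ± 142.1 FPKM in old and 1172 ± 97.6 FPKM in young libraries, and Sirpa, the receptor of CD47, 301.9 ± 25 FPKM in old and 329.3 ± 23.7 FPKM in young libraries. Trem2, a lipid-sensing receptor that signals through Tyrobp, averaged 148.3 ± 17.8 FPKM in old and 112.8 ± 9.16 FPKM in young libraries, with separated groups (SD, n = 3 each).

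In vesicle formation, where CD9, CD63 and CD81 are used as markers, 13 of 16 listed genes were tested and the median log2 change was 0.09. Hgs is listed more than once, and its first entry, which was used, reached at most 0.0197 FPKM and was not tested. None passed with limma or limma voom. An unadjusted limma p under 0.05 with higher values in old was found for 3, Sdcbp, Vps4b and Rab11a, beside 8.84% of all tested genes. Sdcbp, whose product syntenin links CD63 to vesicle budding, had 217.3, 207.5 and 222.2 FPKM in old and 179.3, 181.5 and 171.6 FPKM in young libraries (0.28, SE 0.067, adjusted p = 0.172). Chmp4b and Anxa5 averaged 161.7 ± 4.69 and 457.3 ± 41.7 FPKM in old, beside 148.7 ± 6.07 and 423.8 ± 49.0 FPKM in young libraries, and Pdcd6ip 45.8 ± 0.932 FPKM in old and 42.2 ± 2.42 FPKM in young libraries (SD, n = 3 each). The enzymes that attach palmitate to tetraspanins and the sorting proteins that move them gave 8 tested genes of 9, with a median of 0.09 and none passing with either tool. The medians of both lists are of FPKM as deposited. Rescaling to TPM moved the median log2 change of all tested genes from 0.01 to -0.04. Rab7 and Ap2m1 had an unadjusted p under 0.05 with higher values in old, beside the same 8.84% of all tested genes. Rab7, of late endosomes, averaged 222.2 ± 8.04 FPKM in old and 185 ± 8.62 FPKM in young libraries. Ap2m1, of clathrin coats, averaged 87.3 ± 1.74 FPKM in old and 74.0 ± 9.54 FPKM in young libraries, Gga1 30.7 ± 0.554 FPKM in old and 30.0 ± 0.784 FPKM in young, and Zdhhc5, a palmitoyltransferase gene, 22.8 ± 2.16 FPKM in old and 20.4 ± 1.80 FPKM in young (SD, n = 3 each).

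The genes whose profile over the 6 libraries was most like that of Tspan13 were Pxdc1, Runx3, Abcg3, Trpv4 and Bmyc. Likeness was the mean absolute difference between log2(FPKM + 1) values centred on each gene, over 6 libraries and against 6040 other protein-coding genes averaging 5 FPKM or more. It came to 0.075 for Pxdc1, 0.084 for Runx3, 0.095 for Abcg3, 0.104 for Trpv4 and 0.113 for Bmyc. Pxdc1 had 10.3, 10.7 and 11.2 FPKM in old and 17.8, 19.3 and 22.6 FPKM in young libraries. Runx3, a transcription factor gene, had 16.6, 15.8 and 18.6 FPKM in old and 25.3, 25.2 and 29.5 FPKM in young libraries. Both were lower in every old library, as any gene near Tspan13 by this measure has to be. Cd82 was the nearest member, at 0.123 and rank 15, followed by Cd9 at 0.277 and rank 858.

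**Figure D4:**
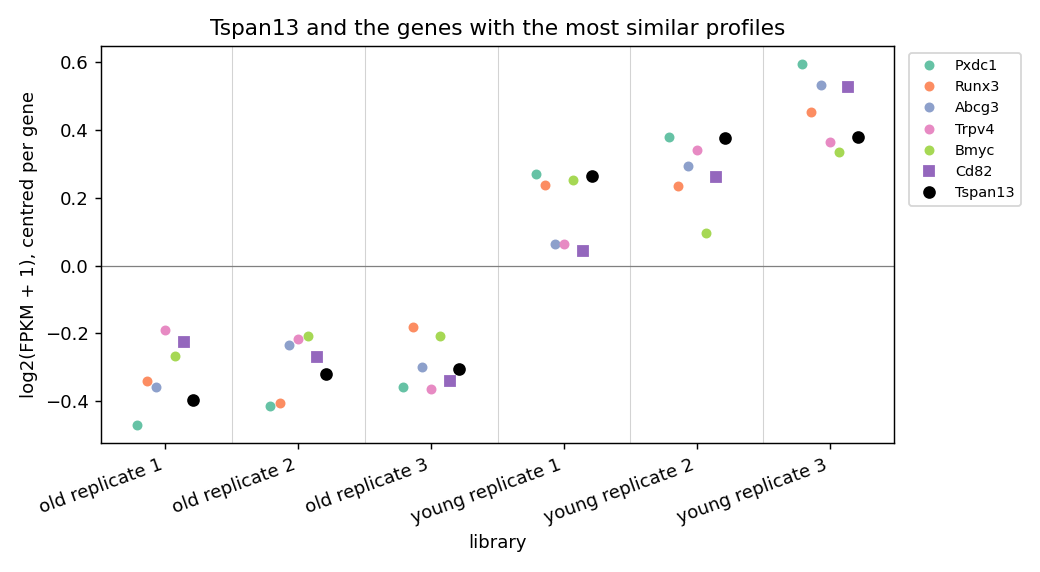
Log2(FPKM + 1) centred on each gene (vertical) in the 6 libraries (horizontal, old on the left) for Tspan13, Cd82 and the 5 genes most like Tspan13. Every gene shown lies below its mean in the 3 old libraries and above it in the 3 young ones, and Cd82 is at its highest in young replicate 3.

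Several tetraspanins are abundant on cells that a macrophage sort can carry along, so marker lists of those cells were summed per library. B cell markers came to 19.6 to 22.6 FPKM in old and 28.0 to 61.6 FPKM in young libraries, mostly Ighm, with 2 of 9 genes at a mean of 1 FPKM or more. Besides Ighm, Cd79b was the other gene at that level, with 3.17 to 5.56 FPKM in old and 5.21 to 8.62 FPKM in young libraries. Ms4a1, a defining marker of B cells, stayed at or under 0.161 FPKM in every library. T and NK cell markers came to 2.93 to 4.32 FPKM in old and 4.93 to 13.4 FPKM in young libraries, mostly Cd4, with 1 of 9 genes at 1 FPKM or more and Cd3e, Cd3g and Ncr1 at 0. Conventional dendritic cell markers came to 3.60 to 9.13 FPKM in old and 8.85 to 11.2 FPKM in young libraries, with 3 of 8 genes at 1 FPKM or more and none at 0. The sums for B cells and for T and NK cells were lower in every old than in every young library, as were Tspan13, Cd82 and Tspan33, while those for dendritic cells overlapped. Their part in the tetraspanin values was not tested.

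Markers of muscle and stroma were low as well. Muscle fibre markers came to 6.09 to 9.58 FPKM in old and 13.7 to 18.9 FPKM in young libraries (5 of 10 genes at 1 FPKM or more), myoblast markers to 4.05 to 5.005 FPKM in old and 7.36 to 8.15 FPKM in young (2 of 8), fibroblast markers to 1.5 to 2.51 FPKM in old and 3.23 to 6.49 FPKM in young (1 of 8), and endothelial markers to 5.14 to 10.3 FPKM in old and 7.03 to 9.06 FPKM in young (3 of 8). The first 3 of these sums were lower in every old library, and the endothelial sums overlapped. With lower values in old, limma passed 1 fibre gene, beside 0.018% of all tested genes. limma voom passed 1 fibre gene and 1 endothelial gene, beside 14 of 10965 genes with lower values in old. No gene of these 4 lists was at 0 in every library. Plasmacytoid dendritic cell markers were carried by Bst2, which interferon induces in many cells, at 489.9 to 592.5 FPKM in old and 321.3 to 422.1 FPKM in young libraries. In that list 3 of 9 genes reached 1 FPKM, Siglech stayed at or under 0.469 FPKM, and Ly6d and Klk1 were at 0. Platelet markers were carried by Pf4, at 767.7 to 1028 FPKM in old and 614.9 to 968.2 FPKM in young libraries, with 2 of 7 genes at 1 FPKM or more and Gp1bb at 0. Neutrophil markers were carried by Csf3r, at 36.1 to 46.8 FPKM in old and 30.2 to 38.9 FPKM in young libraries, with 4 of 8 genes at 1 FPKM or more and Ly6g at 0. The part of these lists in the tetraspanin values was not tested.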

How the data were processed

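RNA of 3 old and 3 young macrophage samples was measured by sequencing. The values are FPKM per gene, computed and deposited by the authors as 1 table for the series. The submitters' processing notes name the build GRCm38.p6. The aligner, counter, annotation and strand setting are not stated there or in the labels. Columns were matched to samples by title.

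Gene models came from GENCODE M21 on GRCm38, which held 54495 of 54966 identifiers (99.1%). FPKM multiplied by exon length gave whole fragments, within 0.02 and below 200, in 97.5% to 97.6% of values per library. Old was tested against young with limma 3.58.1 (R 4.3.3) on log2(FPKM + 1) with a mean-variance trend, for the 11108 genes that averaged 1 FPKM or more. Two-sided p-values were adjusted over all genes (Benjamini-Hochberg), and 0.05 was the threshold. The fit was tested on simulated data. The 15 alternative settings, among them limma voom on the recovered fragments relative to the library sizes implied by the FPKM, are given at the end.

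The members and lists were chosen with earlier results of these data known. Members are named in full, and other lists by their 4 most abundant genes. Genes named for separated groups, for an unadjusted p under 0.05, as defining markers or as other list members were chosen after their values were seen. Upstream sequences are from RefSeq (GRCm38.p6), which held all 10 members. Some marker genes are not reported here.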

Additional observations from a re-analysis of the deposited data

How the results depend on the processing

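The number of genes that passed between old and young was 4 of 11108 with limma, and 4 as well under median-of-ratios scaling, quantile normalization and rescaling to TPM. It was 0 with a pseudocount of 0.1 (1665 genes at an unadjusted p under 0.05), 0 without the filter (2489), 0 with a mean of at least 5 FPKM (1143), 50 with array weights and 41 with limma voom on the recovered fragments. Leaving out each library in turn gave 0 to 15, with 15 reached without young replicate 1. The replicate number as a block gave 0 genes (1658 at an unadjusted p under 0.05). Same-numbered old and young libraries deviated from their group means with correlations of 0.032 to 0.054, too low to pair them, although every library correlated best with its own number, a hint from the data and not from the design.

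All 149 member values under alternative settings kept their sign, and 140 kept their side of the threshold. The other 9 were Tspan13, whose log2 change was -0.70 with a pseudocount of 0.1 (limma adjusted p = 0.0789), -0.68 without the filter (0.0572), -0.68 with a mean of at least 5 FPKM (0.0544) and -0.68 with the replicate block (0.151), and which lost the call without 5 of the 6 libraries. Leaving out 1 library moved Tspan13 between -0.72 and -0.65, Cd82 between -0.67 and -0.43, Cd81 between -0.74 and -0.17, Tspan33 between -0.56 and -0.29, Cd9 between -0.20 and -0.038, Tspan4 between -0.17 and -0.019, Tspan3 between 0.094 and 0.30, Tspan14 between 0.074 and 0.12, Cd37 between 0.24 and 0.30 and Cd53 between 0.18 and 0.28. The cause of these lost calls was not tested. At 56 to 171 fragments, Tspan33 is the member that depth limits most.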

Other observations

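Of the 21 tetraspanins outside the set, 14 were nearly absent from these macrophages, each with a mean under 1 FPKM. Tspan8 and Upk1b were listed at 0 in all 6 libraries. Upk1a, a tetraspanin of the bladder lining, had 0.472, 0.531 and 0.461 FPKM in old and 0.380, 0.209 and 0.331 FPKM in young libraries, and Tspan2, known from myelin-forming cells, stayed at or under 0.464 FPKM. Tspan15, a TspanC8 gene, had at most 0.033 FPKM in old and 0.057 to 0.106 FPKM in young libraries.

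Libraries held the extremes of the 10 members unevenly. Old replicate 3 had the highest value of 3 members and the lowest of 4, and young replicate 3 had the highest of 4 and the lowest of 2. Old replicate 1 had the highest of 0 and the lowest of 2, old replicate 2 the highest of 2 and the lowest of 0, young replicate 1 the highest of 1 and the lowest of 1, and young replicate 2 the highest of 0 and the lowest of 1.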
